A study of Rattus norvegicus with 2 samples.

Results

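Splicing factors and hnRNP proteins were followed as 58 rat genes, taken by symbol among the 15443 genes with a named probe on the arrays. A gene was a member if its symbol begins with Srsf, Snrp, Hnrnp, Sf3a, Sf3b, Prpf or U2af, a rule that uses no measured ratio, although it was set with earlier results of these data known. Probes well above background in at least 1 channel were kept, which left 57 members, and all 80 of their probes were well above background in all 4 channels. The exception was Srsf12, an SR-like repressor, whose single probe was not well above background in any channel and for which no ratio is given.

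Total RNA was taken from primary neural precursor cells of SD rat embryonic cortex at day 14 (E14), grown in N2 medium with 10 ng/mL bFGF, which maintains their proliferation. Cells were transiently transfected with 4 µg of plasmid, so that untransfected cells may be present, and the labels give neither their share nor the number of embryos. The withdrawal array set cells with the empty vector MSCV-IRES-EGFP kept for 2 days in NB medium without bFGF (red, Cy5) against cells with the same vector in N2 medium with bFGF (green, Cy3), which addresses what changes on differentiation. The Bcl-2 array set cells with rBcl-2-MSCV-IRES-EGFP and bFGF (red), carrying an inhibitor of mitochondrial apoptosis, against cells with the empty vector and bFGF (green), which addresses what Bcl-2 changes in dividing cells.

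Splicing removes introns through the spliceosome, which is built on each transcript from small nuclear ribonucleoproteins and many further proteins. SR proteins (Srsf) mostly promote the use of the exons they bind, while hnRNP proteins coat nascent RNA and often repress splice sites or change splice site choice. Levels of such regulators are known to differ between dividing neural progenitors and neurons, and several of them control one another's transcripts.

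Which way the ratios run could not be settled from these data. The log2 ratios of both arrays, which share the labelled control, correlated at r = -0.67 over 42877 gene spots, and at -0.12 with the ratio computed by the scanner software. Both green channels carry the same label, yet over 17301 probes the SD of the log2 difference between the green channels was 0.38, while between green of the Bcl-2 array and red of the withdrawal array it was 0.14. Over the 80 probes of the members these SDs were 0.21 and 0.13. Between red of the Bcl-2 array and green of the withdrawal array the SD was 0.17 over the members and 0.15 over all probes, and between the red channels 0.21 and 0.35. The Bcl2 gene itself had log2 ratios of 0.39 on the withdrawal array and -0.02 on the Bcl-2 array, on 1 probe that checks the label only if the plasmid's transcript carries its target, which the sources used here do not give. Channels are therefore named below as they were labelled. Ratios are log2 of red over green, and with the sign of an array turned every "lower" on it becomes "higher".

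There was 1 array for each comparison, with no dye swap, so no difference has a replicate check, no p is given, and each value describes these arrays. The arrays lay on 1 slide and were read in 1 scan. Over probes printed more than once, spots of the same probe varied with an SD of 0.07 on the withdrawal array and 0.06 on the Bcl-2 array. Different probes of a member varied more: over the 20 members with at least 2 kept probes the median gap between highest and lowest probe was 0.15 on each array, and their signs disagreed for 9 on each. The other 37 members rest on 1 probe. All 10 progenitor markers with a named probe were well above background on the withdrawal array and all but Msi1 on the Bcl-2 array. Of 8 astrocyte markers 7 were well above background on each array, and Gfap was not on either.

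In the channel labelled vector without bFGF most members were slightly lower and none by 2-fold. By its label that channel also differed in medium, NB in place of N2, so medium and bFGF cannot be told apart. On the withdrawal array 46 of 57 members (80.7%) lay below 0, against 45.8% of 10852 genes, with a median log2 ratio of -0.16 (0.16 with the array turned) against 0.03 for all genes. At or below -0.25 were 18 members (31.6%), against 16.7% of all genes, and at or above 0.25 was 1 member, Prpf18, against 25.3% of all genes. A gene was called if its log2 ratio was at least 1 in size, that is 2-fold, with all kept probes of the same sign. By that rule 0 members were called, where 2.89% of all genes were. In bulk RNA, fewer cells of a type and less RNA per cell cannot be told apart.

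On the Bcl-2 array most members were slightly higher in the channel labelled rBcl-2. There, 40 of 57 members (70.2%) lay above 0, against 48.2% of 10241 genes, with a median of 0.08 (-0.08 with the array turned) against -0.01 for all genes. At or above 0.25 were 13 members (22.8%), against 14.9% of all genes, and at or below -0.25 were 3 (5.26%), against 22.1%. The 3 were Prpf19, Sf3b5 and Sf3a3. Only Prpf19 was called, lower in red, where 2.56% of all genes were called in either direction and 2.00% lower. Since the arrays share the labelled control, the values of the comparisons are set side by side and their likeness is not tested.

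**Figure D1:**
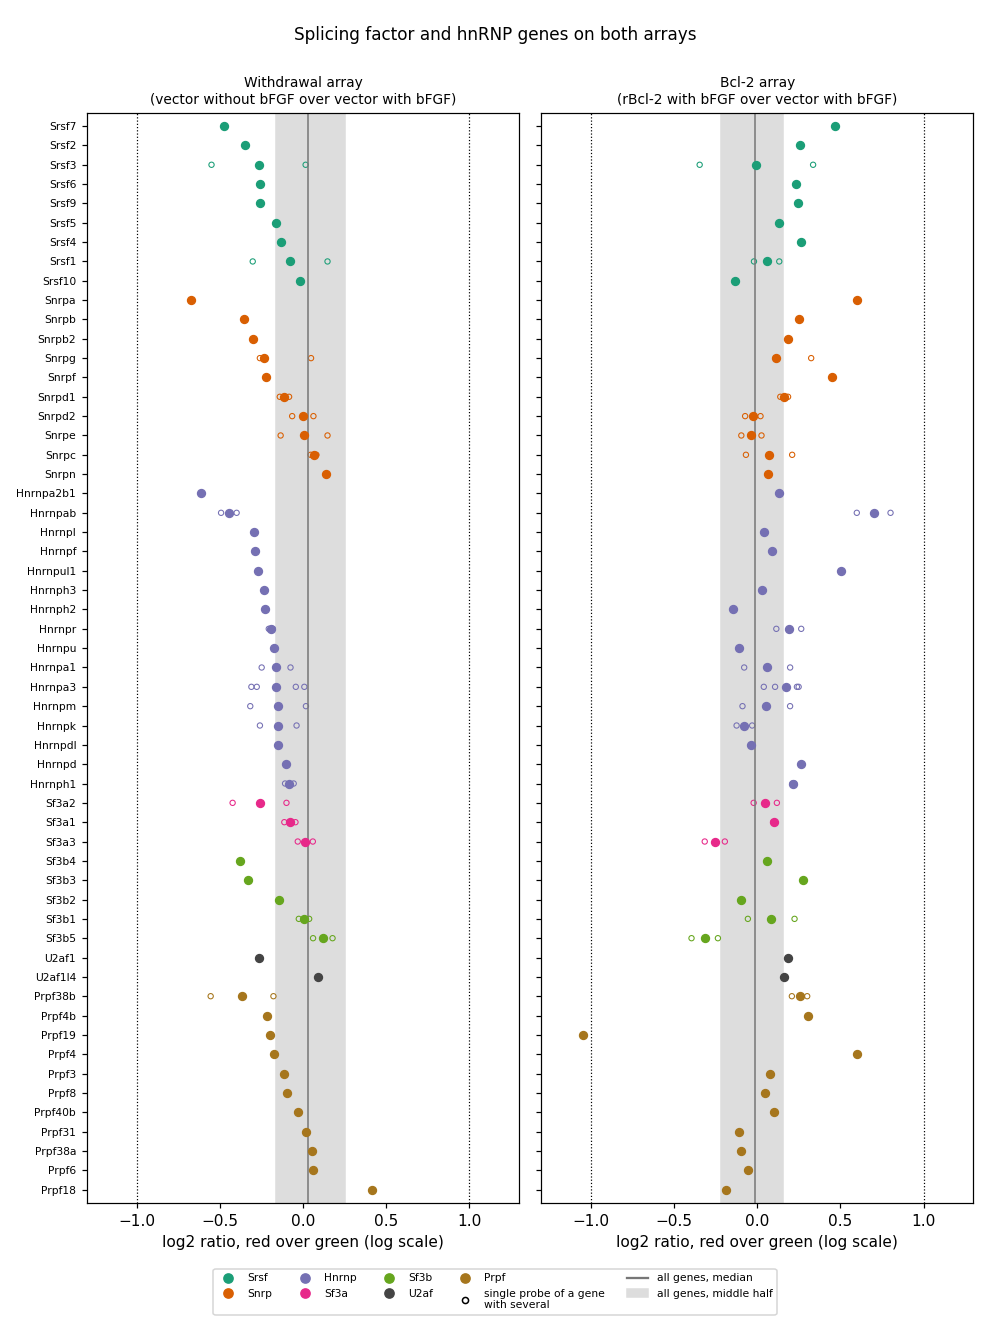
Log2 ratio of red over green (x axis, log scale) of 56 of the 57 measured members, 1 row each, on the withdrawal array (vector without bFGF over vector with bFGF) and the Bcl-2 array (rBcl-2 with bFGF over vector with bFGF). Filled points are genes coloured by family, open circles single probes of genes with several, the line and grey band the median and middle 50% of all genes, and dotted lines the 2-fold limit. Of the 56 drawn, 45 lie left of 0 on the withdrawal array and 40 right of 0 on the Bcl-2 array, and only Prpf19 lies past a dotted line.

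The side of 0 on the withdrawal array depended on how the dyes were balanced. Without the intensity-dependent (loess) step, each array was only centred on its median. Then 12 of 57 members lay below 0 on the withdrawal array, against 32.0% of all genes. Their median was 0.15, against 0.17 for all genes. Members are mostly bright: 39 of the 57 were among the 2540 brightest genes, the top of 4 equal bins. Within that bin the median of the members was -0.16 against 0.01 for all its genes with loess, and 0.15 against 0.33 without it. On the Bcl-2 array it was 0.13 against -0.03 with loess and 0.20 against 0.01 without it. Among the brightest genes the median of the members was thus below that of all genes on the withdrawal array and above it on the Bcl-2 array, with and without loess. Without loess the median of every family on the withdrawal array was above 0, from 0.03 for Srsf to 0.25 for U2af, so the family medians and counts below hold with loess.

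**Figure D2:**
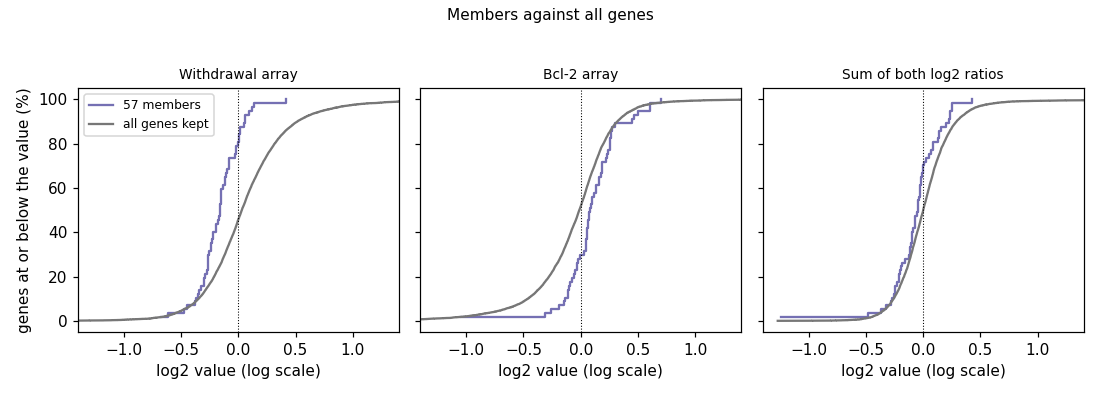
Cumulative percentage of genes (y axis) by log2 ratio or by the sum of both log2 ratios (x axis, log scale), for the members and for all genes kept. The curve of the members lies left of that of all genes over most of its range on the withdrawal array (medians -0.16 and 0.03) and right of it on the Bcl-2 array (medians 0.08 and -0.01), and the curves of the sum lie close together (medians -0.05 and -0.00). All curves are with loess; without it the members' medians were 0.15 on the withdrawal array and 0.29 in the sum.

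The sum of both log2 ratios is near 0 for a gene with equal and opposite ratios. Over the members its median was -0.05 (0.05 with both signs turned), against -0.00 for all genes, and 39 of 57 members (68.4%) lay below 0, against 50% of 10160 genes. Without loess that side turned, with 8 of 57 below 0, against 30.1% of all genes, and a median of 0.29 against 0.12. With the scanner software's ratio 32 of 57 lay below 0, against 51.6% of all genes. Among the 2540 brightest genes, which hold 39 of the members, 56.7% lay below 0 in the sum with loess and 8.03% without it. In that bin the median sum was -0.05 for the members and -0.03 for all its genes with loess. Without loess these medians were 0.32 and 0.29, so in the sum the members stood close to other bright genes. With loess, at or below -0.25 were 7 members (12.3%), against 10.7% of all genes, and at or above 0.25 were 3 (5.26%), against 12.8%. Called in the sum was again Prpf19 alone, with 0.679% of all genes called in either direction and 0.0492%, or 5 genes, called lower. Many of those genes were dim in a channel. With only probes well above background in both channels, as the measured members' probes were, the calls over all genes fell from 69 to 12. If the withdrawal array alone is turned, the sum becomes the Bcl-2 log2 ratio minus the withdrawal log2 ratio, whose median was 0.26 over the members and -0.04 over all genes. In that difference 2 members (3.51%), Hnrnpab and Snrpa, were at least 1 in size, against 1218 of 10162 genes (12%).

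Srsf genes encode the SR proteins. All 9 measured members lay below 0 on the withdrawal array, with a median of -0.26, and 7 of 9 above 0 on the Bcl-2 array, with a median of 0.23. Srsf7, which also takes part in mRNA export, was furthest from 0. Its signal was 16776 in red (vector without bFGF) and 23306 in green (vector with bFGF) of the withdrawal array, and 21902 in red (rBcl-2) and 15848 in green (vector) of the Bcl-2 array. These signals, scaled across channels, gave log2 ratios of -0.47 and 0.47, with a sum of -0.01. The 2 higher signals were thus green of the withdrawal array and red of the Bcl-2 array.

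Srsf2, which binds exonic enhancers, had log2 ratios of -0.35 on the withdrawal array and 0.26 on the Bcl-2 array. Srsf6 (-0.26 and 0.23), Srsf9 (-0.26 and 0.24) and Srsf5 (-0.16 and 0.13), further SR proteins, had the same signs. Srsf4, a large SR protein, was measured on 10 spots of 1 probe, with means of -0.13 (SD 0.018) on the withdrawal array and 0.26 (SD 0.029) on the Bcl-2 array. Its spots ran between -0.16 and -0.11 on the withdrawal array and between 0.23 and 0.32 on the Bcl-2 array, so neither set crossed 0. The spot SD covers printing and reading of 1 labelled RNA and no difference between cultures. Srsf10, which can act as a repressor of splicing, was near 0 at -0.02 and at -0.13.

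Probes of Srsf3 and Srsf1 disagreed. Srsf3 encodes a small SR protein that regulates its own splicing. Its probe printed on 10 spots had a mean of 0.02 (SD 0.044, from -0.07 to 0.09) on the withdrawal array and -0.35 (SD 0.041, from -0.42 to -0.26) on the Bcl-2 array. Its other probe, on 1 spot, had -0.55 and 0.34. The gaps of 0.57 and 0.68 exceed the spread between spots many times, and the gene medians of -0.27 and -0.01 stand for neither probe. What each probe matches within the gene was not analysed here, and RefSeq names 10 Srsf3 pseudogenes. Srsf1, the founding SR protein, had probes at 0.15 and -0.30 on the withdrawal array and at 0.13 and -0.02 on the Bcl-2 array.

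Snrp genes encode proteins of the small nuclear ribonucleoproteins. Of 10 measured, 7 lay below 0 on the withdrawal array (median -0.17) and 8 above 0 on the Bcl-2 array (median 0.14). Snrpa encodes a protein of the U1 particle that binds a stem loop of its RNA. Its signal was 3650 in red (vector without bFGF) and 5815 in green (vector with bFGF) of the withdrawal array, and 5311 in red (rBcl-2) and 3499 in green (vector) of the Bcl-2 array. Its log2 ratio of -0.67 was the lowest of all members on the withdrawal array, and it stood at 0.60 on the Bcl-2 array, so that the sum was -0.07. The same channels as for Srsf7 were high and low.

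The Sm proteins form the ring around spliceosomal RNAs. Among them Snrpb had -0.35 on the withdrawal array and 0.25 on the Bcl-2 array, and Snrpf, on a dim probe, -0.22 and 0.45. Snrpd1 had -0.11 and 0.16. Snrpd2 (-0.00 and -0.03) and Snrpe (0.01 and -0.04) stood at 0 as genes, with probes on both sides of it on both arrays. Snrpg (-0.24 and 0.11) had 1 of its 3 probes above 0 on the withdrawal array, at 0.05. Snrpb2, a partner of U2 RNA, had -0.30 and 0.18, and Snrpc, the U1 protein that helps recognize the 5′ splice site, 0.06 and 0.07. Snrpn, an imprinted gene for the Sm protein typical of brain, had 1380 in red and 1256 in green of the withdrawal array and 1439 in red and 1377 in green of the Bcl-2 array. It was the highest Snrp member on the withdrawal array, at 0.14, and stood at 0.06 on the Bcl-2 array.

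**Figure D3:**
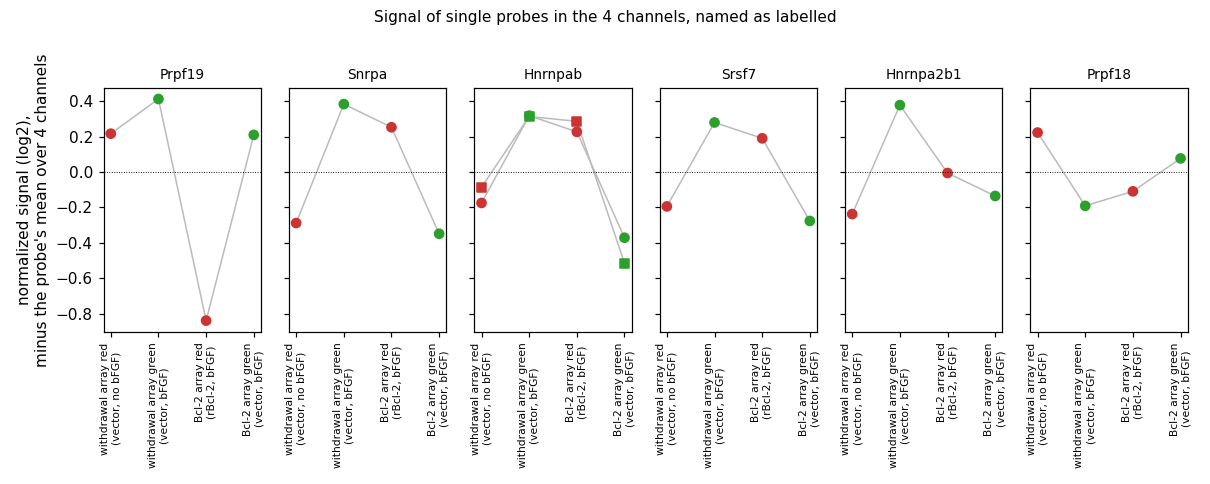
Normalized signal of single probes (y axis, log2, minus the probe's mean over the 4 channels) in red and green of both arrays (x axis), for 6 members; Hnrnpab has 2 probes, drawn as circles and squares. Snrpa, Hnrnpab and Srsf7 are high in green of the withdrawal array and red of the Bcl-2 array, while Prpf19 is low in red of the Bcl-2 array alone.

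Hnrnp genes encode the proteins that package nascent RNA. All 16 measured lay below 0 on the withdrawal array (median -0.19) and 12 of 16 above 0 on the Bcl-2 array (median 0.07), with a median sum of -0.14. Hnrnpa2b1, which binds RNA trafficking and sorting signals, had a signal of 9589 in red (vector without bFGF) and 14693 in green (vector with bFGF) of the withdrawal array. On the Bcl-2 array its signal was 11262 in red (rBcl-2) and 10293 in green (vector). Its log2 ratios of -0.62 and 0.13 gave a sum of -0.49, the lowest of the family. Here 1 channel, green of the withdrawal array, stood above the other 3.

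Hnrnpab, which binds nucleic acids in transcription and RNA transport, had the highest ratio of the members on the Bcl-2 array. Its brighter probe had a signal of 113200 in red and 149313 in green of the withdrawal array, and 146519 in red (rBcl-2) and 84088 in green (vector) of the Bcl-2 array. Its probes stood at -0.40 and -0.49 on the withdrawal array and at 0.80 and 0.60 on the Bcl-2 array, and both agreed in sign. The gene values were -0.45 and 0.70 with a sum of 0.25, the highest of the family. Without loess they were 0.05 on the withdrawal array and 1.11 in the sum, where Hnrnpab then passed the 2-fold limit, as it did on the Bcl-2 array.

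Hnrnpul1, a binder of RNA and of DNA repair proteins, had -0.27 on the withdrawal array and 0.50 on the Bcl-2 array. Hnrnpl, which binds CA-rich RNA, had -0.30 and 0.04, and Hnrnpf, which binds G runs, -0.29 and 0.09; without loess they stood at 0.13 and 0.06 on the withdrawal array. The related Hnrnph2 had -0.23 and -0.14, and its sum of -0.37 was the next lowest after Hnrnpa2b1. Hnrnph1 was the least shifted of the family on the withdrawal array, at -0.08, and Hnrnpd, which binds AU-rich RNA, stood at -0.10. On the Bcl-2 array they had 0.22 and 0.26. The nuclear scaffold gene Hnrnpu had -0.18 and -0.11, and Hnrnpk, which binds C-rich RNA, -0.15 and -0.08, so both were below 0 on each array.

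Hnrnpa1, a splicing repressor, had probes at -0.25 and -0.08 on the withdrawal array and at 0.20 and -0.08 on the Bcl-2 array. RefSeq names 51 pseudogenes of it, and signal from near-identical copies cannot be told apart. Hnrnpa3, a relative, had 4 probes from -0.31 to 0.01 on the withdrawal array and from 0.04 to 0.25 on the Bcl-2 array. On the withdrawal array its brighter probes stood at 0.01 and -0.04 and its dimmer probes at -0.31 and -0.28. The gene value of -0.16 there lies between these pairs. Hnrnpm had probes at 0.02 and -0.32 on the withdrawal array, and its probes differed by 0.62 in the sum. Hnrnpr (-0.19 and 0.19), Hnrnph3 (-0.23 and 0.03) and Hnrnpdl (-0.15 and -0.04) complete the family. Over the 28 measured members with a pseudogene of their name the medians were -0.16 on the withdrawal array, 0.07 on the Bcl-2 array and -0.07 in the sum. Over the 29 without they were -0.16, 0.10 and -0.05. These are medians of different genes, and what pseudogenes add to the signal was not tested.

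Sf3a, Sf3b and U2af genes encode proteins that recognize the branch point and the 3′ splice site. Sf3a and Sf3b subunits belong to the U2 particle and did not share a direction. Sf3b4 stood at -0.38 on the withdrawal array and 0.06 on the Bcl-2 array, and Sf3b3 at -0.33 and 0.28. Sf3b5 stood at 0.12 and -0.32, with its probes at 0.06 and 0.18 and at -0.24 and -0.40. Its signs are the reverse of those of most members on each array. Sf3b1, whose product contacts the branch site, was near 0 at 0.01 and 0.08 with probes on both sides of 0 on each array, and Sf3b2 had -0.15 and -0.10.

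Among the Sf3a genes, Sf3a2 had -0.26 on the withdrawal array and 0.05 on the Bcl-2 array as a gene. Its dim probe, at 114 in red and 152 in green of the withdrawal array, had -0.42 and -0.02. Its bright probe, at 6800 and 7287, had -0.10 and 0.12. Sf3a1 had -0.08 and 0.10. Sf3a3 had 0.01 and -0.26, with probes at -0.20 and -0.32 on the Bcl-2 array. U2af1 encodes the small U2AF subunit, which reads the AG at the end of the intron. It had -0.26 and 0.19 (0.14 on the withdrawal array without loess), while its paralog U2af1l4 had 0.09 and 0.16.

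Prpf genes encode proteins named for yeast splicing mutants, and most belong to the U5 and tri-snRNP particles or join the spliceosome on activation. Their medians were near 0, at -0.06 on the withdrawal array and -0.00 on the Bcl-2 array, with 8 of 12 below 0 and 6 of 12 above 0. Prpf19 encodes a ubiquitin ligase at the core of the complex that activates the spliceosome. Its 1 probe, on 1 spot, had a signal of 735 in red (vector without bFGF) and 842 in green (vector with bFGF) of the withdrawal array, and 353 in red (rBcl-2) and 731 in green (vector) of the Bcl-2 array. Thus 3 channels lay between 731 and 842 and red of the Bcl-2 array was lower.

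The log2 ratios of Prpf19 were -0.20 on the withdrawal array and -1.05 on the Bcl-2 array (1.05 with the array turned), with a sum of -1.25. By the scanner software's ratio they were -0.34 and -1.23. Counted from the lowest, the gene ranked 183 on the Bcl-2 array and 3 in the sum with the arrays as labelled. With 1 array turned, its Bcl-2 minus withdrawal value was -0.85, the lowest of the members but at rank 1163 of 10162 genes. Red of the Bcl-2 array minus green of the withdrawal array was -1.25 for this probe, the lowest of 17301 probes. In contrast, green of the Bcl-2 array minus red of the withdrawal array was -0.01. The value rests on a single spot that carried no outlier flag, and no other probe of the gene was on the arrays under its name.

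Prpf18, which acts in the second step of splicing, was the highest member on the withdrawal array. Its signal was 494 in red (vector without bFGF) and 371 in green (vector with bFGF), and 393 in red (rBcl-2) and 447 in green (vector) of the Bcl-2 array. Its log2 ratios were 0.41 and -0.19. Prpf4, a tri-snRNP protein, had 4933 in red and 5561 in green of the withdrawal array and 6207 in red (rBcl-2) and 4091 in green (vector) of the Bcl-2 array. Its ratios of -0.17 and 0.60 gave a sum of 0.43, the highest of the members with the arrays as labelled. With 1 array turned, its Bcl-2 minus withdrawal value of 0.77 came after those of Snrpa (1.27), Hnrnpab (1.15) and Srsf7 (0.94). Prpf38b had probes at -0.56 and -0.18 on the withdrawal array and at 0.30 and 0.21 on the Bcl-2 array, and the splicing kinase gene Prpf4b stood at -0.22 and 0.30.

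Prpf8, the scaffold of the catalytic centre, stood near 0, at -0.10 and 0.05. Prpf6 (0.06 and -0.06), Prpf31 (0.02 and -0.11) and Prpf3 (-0.12 and 0.08), further tri-snRNP proteins, were also within 0.12 of 0. The U1-associated gene Prpf40b (-0.03 and 0.10) and the activation factor gene Prpf38a (0.05 and -0.10) lay in the same range. For single members at such values the sign is not readable, since probes of the same gene typically differed by more.

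**Figure D4:**
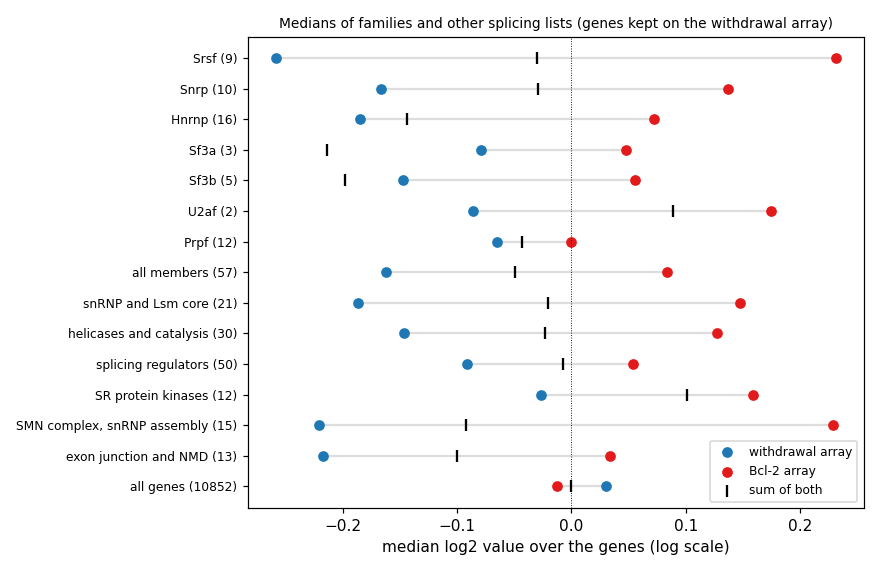
Median log2 ratio (x axis, log scale) of each member family and of each of 6 further lists of splicing genes, on the withdrawal array (blue), the Bcl-2 array (red) and in the sum (ticks), with the number of genes kept on the withdrawal array and with all genes at the bottom. Srsf has the lowest family median on the withdrawal array (-0.26) and the highest on the Bcl-2 array (0.23), and Prpf lies near 0 on both (-0.06 and -0.00).

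Promoters are shown for Prpf19, the called member, and for Snrpa, Hnrnpab and Srsf7, which had the largest opposite ratios on the arrays. They are the 250 bases before and 50 bases from the RefSeq start site on assembly GRCr8, 5′ to 3′ on the strand of the gene, at chr1:216966257-216966556 (plus) for Prpf19, chr1:91617993-91618292 (minus) for Snrpa, chr10:36363849-36364148 (minus) for Hnrnpab and chr6:20563802-20564101 (plus) for Srsf7. Capitals mark matches, on either strand, to the GC box GGGCGG, the ETS core CCGGAAG, the E box CACGTG, the CCAAT box CCAAT and the TATA box TATAAA.
Prpf19: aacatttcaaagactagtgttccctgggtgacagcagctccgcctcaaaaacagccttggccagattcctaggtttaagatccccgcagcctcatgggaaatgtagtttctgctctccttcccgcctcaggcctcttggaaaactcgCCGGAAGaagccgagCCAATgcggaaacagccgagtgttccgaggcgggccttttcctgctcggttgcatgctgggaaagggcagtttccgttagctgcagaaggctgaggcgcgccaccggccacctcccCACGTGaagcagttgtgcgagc
Snrpa: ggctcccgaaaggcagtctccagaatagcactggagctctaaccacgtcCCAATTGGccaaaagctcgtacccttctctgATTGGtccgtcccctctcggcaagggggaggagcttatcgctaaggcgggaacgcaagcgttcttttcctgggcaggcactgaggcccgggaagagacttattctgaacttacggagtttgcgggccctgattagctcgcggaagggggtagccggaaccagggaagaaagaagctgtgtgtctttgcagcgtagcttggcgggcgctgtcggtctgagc
Hnrnpab: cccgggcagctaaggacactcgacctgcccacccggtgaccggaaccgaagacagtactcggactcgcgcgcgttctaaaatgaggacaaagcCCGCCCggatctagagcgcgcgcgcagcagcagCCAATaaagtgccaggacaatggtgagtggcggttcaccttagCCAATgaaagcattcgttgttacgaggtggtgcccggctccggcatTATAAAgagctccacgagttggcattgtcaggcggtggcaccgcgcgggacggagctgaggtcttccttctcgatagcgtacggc
Srsf7: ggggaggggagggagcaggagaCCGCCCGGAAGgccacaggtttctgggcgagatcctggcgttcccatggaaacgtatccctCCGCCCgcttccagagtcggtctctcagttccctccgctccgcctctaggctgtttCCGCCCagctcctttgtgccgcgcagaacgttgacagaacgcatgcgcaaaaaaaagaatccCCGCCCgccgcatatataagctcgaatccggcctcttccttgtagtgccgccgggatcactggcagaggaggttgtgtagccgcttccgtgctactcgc

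The promoters of these 4 members differ in their matches. Prpf19 has 1 ETS, 1 CCAAT and 1 E box match and no GC or TATA box match. Snrpa has 3 CCAAT matches, of which 2 on opposite strands overlap, and Srsf7 has 4 GC box matches, 1 of them overlapping its ETS match. Hnrnpab has 1 GC box, 2 CCAAT matches and 1 TATA box match. A match is only these letters in this window and shows no binding.

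Of the 57 measured members, 55 matched a promoter. A CCAAT match stood in 31 of the 55 (56.4%), against 38.2% of 8386 promoters of genes kept on both arrays and 37.7% of all 27457 promoters. Of the 16 Hnrnp promoters 14 held it. The ETS core stood in 16 of 55 (29.1%), against 18.1% of kept genes and 9.22% of all promoters, with 5 of 10 Snrp promoters among them. The GC box stood in 54.5% of the members' promoters, below the 61.7% of kept genes and above the 34.9% of all. The E box stood in 14.5%, against 9.35% and 6.65%, and the TATA box in 10.9%, against 7.14% and 14.3%. These shares are descriptions of a list chosen by name, and paralogs within a family share ancestry.

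Other genes of RNA splicing, on 6 lists chosen by function, stood on the same sides as the members. Of 140 measured on the withdrawal array 103 lay below 0, with a median of -0.12, and of 138 on the Bcl-2 array 94 lay above 0, with a median of 0.11. Of these genes 0 were called on either array, against 2.89% and 2.56% of all genes. By the scanner software's ratio 4 were at least 1 in size on the withdrawal array (Rbm24, Celf5 and Celf6 above 0 and Cwc15 below) and 3 on the Bcl-2 array (Casc3 and Celf5 above 0 and Celf3 below), where 10.4% and 10.3% of all genes were. One list held the SMN complex, which loads Sm proteins onto RNA, together with other factors of snRNP assembly. It had 13 of 15 below 0 on the withdrawal array (median -0.22) and 12 of 15 above 0 on the Bcl-2 array (median 0.23). In that list Wdr77 stood at -0.71 and 0.44, Gemin6 at -0.62 and 0.47, and Snupn, an import adaptor, at 0.22 and -0.45. Gemin5 had the highest sum, 0.07.

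Further snRNP and Lsm proteins had 17 of 21 below 0 on the withdrawal array and 17 of 21 above 0 on the Bcl-2 array, with medians of -0.19 and 0.15. Usp39 stood at -0.49 and 0.30, Snu13 at -0.22 and 0.45, Snrnp35 at 0.19 and -0.23, and Lsm5 at -0.33 and 0.01. Helicases and partners of catalysis had 22 of 30 below 0 and 18 of 30 above 0. Among them the RNA helicase gene Ddx39a stood at -0.69 and 0.84, Dhx35 at 0.58 and -0.17, and Snw1, which binds the active spliceosome, at -0.31 and -0.40, with a sum of -0.71. Exon junction and nonsense-mediated decay genes had 12 of 13 below 0 on the withdrawal array, with Eif4a3 at -0.35 and Upf3b at 0.29. On the Bcl-2 array 9 of 13 lay above 0, with Casc3 at 0.50 and Smg6 at -0.33.

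Genes on the list of SR protein kinases were spread about 0 on the withdrawal array, with 7 of 12 below 0 and a median of -0.03. On the Bcl-2 array 9 of 12 lay above 0. Dyrk3 stood at -0.56 and 0.36, Srpk2 at 0.35 and -0.14, Clk4 at 0.00 and -0.24, and Dyrk2 at 0.13 and 0.24. The kinase list also holds the member Prpf4b. It counts Ppig too, which is not a kinase, at -0.04 and 0.22.

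Tissue-restricted and other splicing regulators had 33 of 50 below 0 on the withdrawal array (median -0.09) and 30 of 48 above 0 on the Bcl-2 array (median 0.05). Ptbp1, which represses neuronal exons in progenitors, stood at -0.40 and 0.24, its neuronal relative Ptbp2 at -0.07 and 0.15, and the neuronal RNA-binding gene Elavl3 at 0.10 and 0.05. Chosen after their values were seen, its relative Elavl4 stood at -0.26 and 0.25, Rbfox1 at -0.00 and 0.01, Rbfox2 at 0.49 and -0.38, and Celf3 at 0.56 and -0.54. The neural regulators named here thus did not share a side, which says nothing of those not named. Rbm24, a regulator of muscle splicing, stood at 0.74 and -0.73, Raly at -0.63 and 0.06, and Fubp1 at -0.19 and 0.62. No named probe was found for Nova1, Nova2, Rbfox3 or Srrm4.

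Marker genes of several cell types also differed between the channels. Summed signals cover every listed gene with a named probe, also those not detected, whose signal is near the floor. On the withdrawal array 9 of 9 measured neuron markers lay above 0 (median 0.42), with a summed signal of 20711 in red and 13505 in green, and on the Bcl-2 array 6 of 9 lay below 0, with 14163 in red and 19596 in green, and Syt1 and Nefl not detected. Astrocyte markers had 7 of 7 above 0 on the withdrawal array (24448 in red and 8636 in green) and 7 of 7 below 0 on the Bcl-2 array (8922 in red and 24229 in green), and Gfap was not detected. Sums for the next lists are given in the same order, red before green. Fibroblast and meninges markers had 8 of 8 above 0 (13199 and 5442) and 7 of 7 below 0 (3507 and 12630). Progenitor markers had 7 of 10 above 0 (223580 and 149994) and 7 of 9 below 0 (164995 and 233251). Oligodendrocyte markers had 5 of 7 above 0 (76494 and 59811) and 4 of 7 below 0 (72476 and 72377), with Mog not detected. Microglia and blood markers had 4 measured, with Itgam, Ptprc, C1qa and Hbb not detected. Over all 8 with a named probe the summed signal was 1813 in red and 1675 in green of the withdrawal array. On the Bcl-2 array it was 1656 in red and 1711 in green. Endothelium and pericyte markers had 3 measured, with Pecam1, Flt1, Cldn5 and Rgs5 not detected. Over all 7 with a named probe the summed signal was 893 in red and 834 in green of the withdrawal array. On the Bcl-2 array it was 825 in red and 878 in green. The part of these cells in the ratios of the splicing genes was not tested.

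RefSeq lists 222 genes of these 7 families in the rat, of which 76 are protein-coding and 146 are pseudogenes. No named probe was found for 18 of the protein-coding genes, among them Hnrnpc, Hnrnpa0, Hnrnpll, Hnrnpul2, Snrpa1, Snrpd3, Sf3b6, Srsf8, Srsf11, Prpf39 and U2af2, the large U2AF subunit gene, so nothing is said of them here.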

How the data were processed

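Total RNA of 3 labelled conditions was measured on 2 two-colour arrays. In the deposited scanner files each channel has a raw intensity of spot and of background, as pixel medians per the file headers. They also hold a deposited log10 ratio of red over green and flags of 0 or 1. Their headers name Feature Extraction 11.5.1.1, protocol GE2_1105_Oct12, scanner G2505C, design 028282 and build rn4, whereas version 8.5.1.1 stands in the submitters' processing notes. The authors' deposited value table gives a linear ratio for 29782 probes, with column medians 0.932 and 0.944 and scale, centring and direction not stated. Over 28395 probes, within 0.05 on the log2 scale, its first column equalled the withdrawal array's ratio for 100% and its second the product of both arrays' ratios for 100%, so the second was divided by the first.

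The plan had assumed mean signals; the files hold medians, and these were used. In limma 3.58.1 (R 4.3.3) background was corrected by normexp (offset 50), and dyes were balanced by loess within each array, giving control spots a weight of 0. Channel signals were scaled by Aquantile. Outlier spots were left out (534 and 576 of 42877 gene spots, 0 of them of members), 0 spots were saturated, and spots of a probe were averaged. A probe was kept if at least 0.5 of its spots were well above background in at least 1 channel (20328 and 19026 probes). On the withdrawal array the median net signal was 284.5 in red (72.0% of spots well above background) and 189 in green (66.3%), and on the Bcl-2 array 266 in red (66.1%) and 201 in green (66.6%). The number of arrays, 1 for each comparison, limits the precision, and there is no test.

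Symbols came from RefSeq accessions without version matched to a table of assembly GRCr8, used for names and promoters, which named 60.4% of 30367 probes. Kept probes were summarised per gene by their median. The background correction and the loess fit were tested on simulated spots with planted log2 ratios, equal in number above and below 0. Such spots cannot show whether loess places the members on the right side of 0 on these arrays. Named were all members called; the 2 highest and 2 lowest of each family on each array and in the sum; members whose probes disagreed in sign or by 0.5; members not well above background; members whose sign changed under an alternative; the extremes of each splicing list; and the neural regulators Ptbp1, Ptbp2, Rbfox3, Nova1, Nova2, Srrm4 and Elavl3. Further members are named to account for the others, and 1 measured member, kept in all counts, is not reported here by name. Members and lists were chosen with earlier results of these data known.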

Additional observations from a re-analysis of the deposited data

How the results depend on the processing

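Each of 7 alternatives was run on the members' medians and 2-fold counts: normexp with an offset of 10, the Feature Extraction ratio, median centring without loess, probes above background in both channels, no filter on dim probes, the mean over probes, and the authors' value table. Leaving out Prpf19 was added after seeing the data. Without loess the members' median was 0.15 on the withdrawal array (all genes 0.17) and 0.29 in the sum (all genes 0.12), and 2 members, Hnrnpab and Prpf19, were at least 2-fold on the Bcl-2 array and 2 in the sum. With the Feature Extraction ratio the median on the Bcl-2 array was 0.17 (all genes 0.05). Every other median and count of the members moved by no more than the spread between spots of a probe (medians) or 1.5 times (counts). Prpf19 was the 1 member called on the Bcl-2 array and in the sum under the other 6 alternatives, and 0 members were called on the withdrawal array under any of the 7. Over all genes the counts moved more: the Feature Extraction ratio gave 1124 genes on the withdrawal array, 1048 on the Bcl-2 array and 491 in the sum, against 314, 262 and 69.

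Of 147 family medians under alternatives 127 kept their sign, and of 1197 values of single members 1093 did. Without loess all 7 family medians on the withdrawal array were above 0, from 0.03 (Srsf) to 0.25 (U2af). In the sum 8 of 57 members then lay below 0, against 30.1% of all genes. Members at 0.25 or more in size that changed sign did so without loess: on the withdrawal array Hnrnpab (0.05), Hnrnpf (0.06), Hnrnpl (0.13), Srsf3 (0.01), Srsf6 (0.03), Srsf9 (0.01) and U2af1 (0.14), and in the sum Hnrnpl (0.43) and Hnrnpu (0.27). U2af1 was at 0.55 in the sum without loess, against -0.08. The slide could not be used as a block, since both arrays lie on 1 slide. No paired analysis was possible because each comparison has 1 array. The dye and the label of a channel cannot be told apart without a dye swap.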
